A study of Mus musculus with 84 samples.

Results

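The keratins and the cornified envelope genes are 64 of the 18909 genes in the count table. They were chosen by symbol, as every keratin gene (36), every small proline-rich gene (Sprr, 14), every late cornified envelope gene (Lce, 12), involucrin (Ivl) and loricrin (Lor). They were followed through the reprogramming of mouse embryonic fibroblasts (MEFs) towards pluripotency, with and without a constitutively active Smad3 (Smad3CA). Transcripts were counted by their 5′ ends with STRT RNA-seq (STRT, single-cell tagged reverse transcription), and each of the 10 groups had 3 biological replicates. MEFs were wild-type cells of strain 129, grown with 5 ng/ml FGF2 and no doxycycline, and harvested without virus or sorting. ESCs were the TNG MKOS line, 1 line with a Nanog-GFP reporter at one Nanog allele and an mOrange-tagged, doxycycline-inducible cassette (MKOS) of the 4 reprogramming factors Oct4, Sox2, Klf4 and c-Myc, grown with 100 U/ml LIF. Reprogramming cells were MEFs from chimeric embryos of that line, mixed with wild-type MEFs and cultured with 300 ng/ml doxycycline, LIF and vitamin C. They were infected with a retroviral vector for a blue fluorescent protein (Cont) or for Smad3CA (+Sm3CA) and sorted for mOrange on days 3, 6, 8 and 10. All reprogramming groups therefore share the induced cassette, the infection and the sort, and MEFs differ from them in all 3. MEFs also differ from them in origin and in medium.

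Keratins are the intermediate filament proteins of epithelial cells, and each filament pairs a type I with a type II keratin. KRT8 and KRT18 form the first filaments of the embryo and those of simple epithelia. KRT5 and KRT14 fill the basal layer of stratified epithelia such as the epidermis, where KRT6 and KRT16 or KRT17 appear on wounding and in hair follicles. As keratinocytes mature, small proline-rich proteins, late cornified envelope proteins, involucrin and loricrin are cross-linked under the membrane into the cornified envelope. Fibroblasts build their filaments from vimentin, and a mesenchymal-to-epithelial transition is a known early step of reprogramming.

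The type I keratin genes lie together on chromosome 11 (18 members), the type II genes with Krt18 on chromosome 15 (17 members), and the cornified envelope genes on chromosome 3 (24 members). On GRCm38 (GENCODE vM21), Krt14 is at chr11:100203162-100207548, Krt16 at chr11:100246091-100248902, Krt17 at chr11:100256217-100261029 and Krt42 at chr11:100262882-100269871, all within the cluster on chromosome 11. Krt8 is at chr15:101996698-102004482, Krt18 at chr15:102028180-102032027 and Krt6a at chr15:101689910-101694307. Sprr2b is at chr3:92316620-92318085, Sprr2k at chr3:92432582-92433925 and Lce1h at chr3:92763215-92765065. Since STRT reads start at the 5′ end, the promoters of 6 members with contrasting courses are shown, as given by RefSeq for GRCm38.p6 from 250 bases before to 50 after the annotated start. Krt8 (chr15:102004293-102004592, minus strand) and Krt18 (chr15:102027966-102028265, plus strand) encode the filament partners of simple epithelia. Krt14 (chr11:100205981-100206280, minus strand) and Sprr2b (chr3:92316455-92316754, plus strand) were lower with Smad3CA on day 10. Sprr2k (chr3:92432332-92432631, plus strand) was highest in MEFs and Krt42 (chr11:100269902-100270201, minus strand) in ESCs. Each is written 5′ to 3′ on the strand of its gene, and capitals mark 5 sets of letters searched on both strands. These are TATAAA, the core promoter box, then TGANTCA, bound by AP-1 factors, then CCACACCC, a box bound by Klf factors, GTCTAGAC, the palindrome bound by SMAD3, and ATGCAAAT, the octamer bound by OCT4.
Krt8: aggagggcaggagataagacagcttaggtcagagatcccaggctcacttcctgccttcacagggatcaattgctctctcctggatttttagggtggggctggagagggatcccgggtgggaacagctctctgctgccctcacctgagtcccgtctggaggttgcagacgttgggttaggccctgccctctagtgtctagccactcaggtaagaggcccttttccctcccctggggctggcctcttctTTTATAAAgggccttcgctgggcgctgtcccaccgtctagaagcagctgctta
Krt18: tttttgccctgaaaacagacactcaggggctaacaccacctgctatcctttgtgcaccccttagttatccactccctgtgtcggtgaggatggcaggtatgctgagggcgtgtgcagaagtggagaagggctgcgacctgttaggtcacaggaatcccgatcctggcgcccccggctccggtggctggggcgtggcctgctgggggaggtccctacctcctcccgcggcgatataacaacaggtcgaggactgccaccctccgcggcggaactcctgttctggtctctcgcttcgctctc
Krt14: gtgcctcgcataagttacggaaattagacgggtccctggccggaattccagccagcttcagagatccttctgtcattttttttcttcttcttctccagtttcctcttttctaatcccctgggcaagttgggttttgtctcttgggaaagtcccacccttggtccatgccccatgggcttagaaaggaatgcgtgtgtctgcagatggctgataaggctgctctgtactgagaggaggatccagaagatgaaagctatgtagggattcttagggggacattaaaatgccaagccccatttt
Krt42: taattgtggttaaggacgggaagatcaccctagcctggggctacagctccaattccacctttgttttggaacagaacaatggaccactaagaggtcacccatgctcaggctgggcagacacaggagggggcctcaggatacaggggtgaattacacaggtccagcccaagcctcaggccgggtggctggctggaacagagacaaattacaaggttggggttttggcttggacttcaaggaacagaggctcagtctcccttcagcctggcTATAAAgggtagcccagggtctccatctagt
Sprr2b: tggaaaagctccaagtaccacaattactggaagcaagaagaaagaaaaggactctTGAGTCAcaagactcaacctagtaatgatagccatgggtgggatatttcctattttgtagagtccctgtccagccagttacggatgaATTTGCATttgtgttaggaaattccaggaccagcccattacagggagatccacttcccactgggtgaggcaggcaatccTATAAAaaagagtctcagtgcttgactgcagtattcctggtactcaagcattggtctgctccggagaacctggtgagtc
Sprr2k: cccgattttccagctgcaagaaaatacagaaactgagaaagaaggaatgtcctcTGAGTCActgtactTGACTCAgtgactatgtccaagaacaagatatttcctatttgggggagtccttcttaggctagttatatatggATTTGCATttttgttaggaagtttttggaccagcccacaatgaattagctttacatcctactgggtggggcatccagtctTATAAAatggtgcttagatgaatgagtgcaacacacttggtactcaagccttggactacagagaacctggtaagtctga

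Sprr2b and Sprr2k hold the same set of letters in nearly the same places, while Sprr2b was near 0 in MEFs and Sprr2k highest there. Both have TATAAA 29 bases before the annotated start. The octamer begins 108 bases before the start of Sprr2b and 109 bases before that of Sprr2k, in both on the opposite strand. TGANTCA begins 195 bases before the start of Sprr2b, and 196 and 182 bases before that of Sprr2k. Krt8 holds 2 overlapping matches to TATAAA, 1 on each strand, which begin 1 and 3 bases before the annotated start. Krt42 holds 1 that begins 19 bases after it, and the windows of Krt18 and Krt14 hold none of the 5. The Krt14 window lies wholly within the GENCODE span of that minus-strand gene, whose 5′ end is at 100207548. It therefore does not show the letters before that end. For Krt8, Krt18, Krt42 and Sprr2b the RefSeq start also differs from the GENCODE 5′ end. The distances given here hold for the RefSeq starts only. Over the 45 promoter entries that matched 44 members, TATAAA occurred in 23 (51.1%), against 13.6% of all 32851 promoters of the same length. TGANTCA occurred in 11 (24.4%, against 7.81%), of which 9 were among the 21 entries of cornified envelope genes and 2 among the 24 of keratins. The octamer was in 5 entries (11.1%, against 1.74%), all of cornified envelope genes. It was added to the search after the sequences were read, so its share beside that of all promoters is no test. CCACACCC was in 3 entries (6.67%, against 3.56%), and GTCTAGAC in none of the 45 (against 0.213%). These matches describe the letters in the window and were not tested for binding. Promoters of Krt16, Krt17 and Krt6a did not match an entry.

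The 64 members held 50215 reads in all, over 30 libraries of 1008596 to 2296059 reads each. Levels are given as CPM (reads of the gene per 1000000 reads of the library), with library sizes scaled by TMM over all 30 libraries. Krt8 alone took 23.8% of these reads, and 6 genes (Krt8, Krt17, Krt6a, Krt14, Sprr2b and Krt16) took 89.5%. Of the 64 members, 22 passed the filter on low counts (edgeR's filterByExpr), 12 keratins and 10 cornified envelope genes, and 20 of them also passed it in the fit of the 24 reprogramming libraries. The other 42 members held 534 reads together. Of these, 40 had fewer than 10 reads in every library, Lce1f reached 11 reads in MEF replicate 3, and Lce3c reached 23 reads in +Sm3CA day 8 replicate 2. None of the 9 hair and inner root sheath keratins passed, and Krt23, Krt24 and Krt26 had no read. A member had at least 1 read in 24 of 64 cases in MEFs, 40 in Cont on day 3, 40 in Cont on day 10 and 12 in ESCs.

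Smad3, whose counts combine the gene and the vector, was at 58.8 to 125 CPM in +Sm3CA on day 3 and 22.2 to 31.9 on day 10, against 3.46 to 16.7 in Cont. The summed level of 8 fibroblast markers was 3999 to 5596 in MEFs, 320.5 to 454 in Cont on day 3 and 198 to 269 in ESCs. That of 8 ESC markers was 18730 to 34050 in ESCs and at most 1521 in any reprogramming library. The 8 epithelial junction markers summed to 2.17 to 6.84 in MEFs and 307 to 357 in Cont on day 10. The 8 keratinocyte markers summed to 3.35 to 5.47 in MEFs and 157 to 260.1 in Cont on day 3, mostly from Krt14. Trp63, the master regulator of stratified epithelium, had 4 reads in 2 of 30 libraries, and Krt5, the filament partner of Krt14, had 8 reads in 7 libraries. In the reprogramming libraries Dsg3, Ivl and Krt10 of the same list reached 26, 16 and 8.14 CPM. The highest library of Krt10 was ESC replicate 2, at 20.6.

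**Figure D1:**
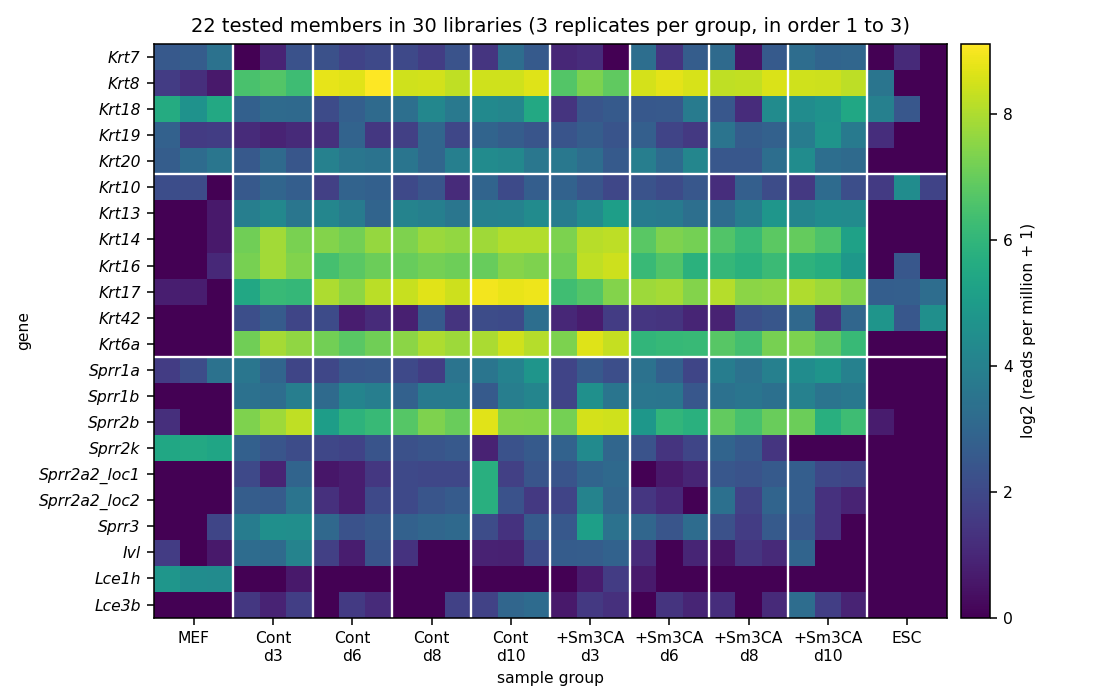
The colour gives log2 (TMM-scaled CPM + 1) for the 22 members that passed the filter (from top to bottom, simple epithelial keratins, stratified epithelial keratins and cornified envelope genes) in all 30 libraries (from left to right, 3 replicates per group). Krt8, Krt14, Krt16, Krt17, Krt6a and Sprr2b are high in every reprogramming library, at 27.2 or more, and at 10.7 or less in MEFs and ESCs, whereas Sprr2k and Lce1h are highest in MEFs.

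The first comparison set Cont on day 3 of reprogramming against MEFs. These MEFs were not the cells that were reprogrammed, so origin, medium, infection and sort differ along with the induced cassette. A set of keratins at or near 0 in MEFs was at a high level on day 3. It was led by Krt6a, Krt14 and Krt16, the genes of activated and follicular keratinocytes, together with Krt17, Krt8 and the envelope gene Sprr2b. Krt18, Sprr2k and Lce1h were lower than in MEFs. Of the 22 members tested, 14 were higher in Cont on day 3 than in MEFs and 3 were lower (edgeR quasi-likelihood test, Benjamini-Hochberg adjusted p below 0.05), against 22.6% higher and 20.9% lower over all 10979 genes tested. Members with no read in MEFs, such as Krt6a and Sprr1b, passed the filter only through other groups. For them only a rise could be called, and Lce1h passed only with MEFs and ESCs in the fit. The counts were therefore partly set by the filter. By class, 6 of the 7 stratified keratins tested rose, 1 of 5 simple keratins rose and 1 fell, and 7 of 10 envelope genes rose and 2 fell.

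Krt6a, a type II keratin of hair follicles and wounds, had no read in any MEF library and stood at 139, 234 and 192 CPM in the 3 Cont libraries of day 3, which is at least 99.3-fold higher (the bound sets 3 reads in each MEF library). Krt14, a type I keratin of basal cells, stood at 140.5, 232 and 156 on day 3 against 0, 0 and 0.542 in MEFs, 812-fold (95% counting interval 145 to 32120) higher by pooled reads. Krt16, the partner of KRT6 on wounding, stood at 149.5, 229 and 165 against 0, 0 and 1.08, 421-fold (95% counting interval 116 to 3483) higher. All 3 therefore passed from a level of 1.085 or less in MEFs to at least 139 in every library of day 3 (adjusted p = 2.21e-16, 2.38e-16 and 3.31e-16 in that order). Krt17, a type I keratin of follicles that is also induced by injury, stood at 43.2, 69.1 and 66.3 against 0.684, 0.669 and 0, 141-fold (95% counting interval 38.6 to 1169) higher (adjusted p = 1.4e-14). Krt13, the suprabasal keratin of mucosal epithelia, stood at 13.8, 18.1 and 11 against 0, 0 and 0.542, 66.3-fold (95% counting interval 11.5 to 2659) higher (adjusted p = 1.63e-07). Krt42 appeared at 3.6, 5.18 and 2.76 where MEFs had no read (at least 2.03-fold higher, adjusted p = 0.00162). Krt10, the suprabasal keratin of epidermis, stood at 4.8, 6.91 and 5.52 against 3.42, 3.35 and 0 and did not pass (log2 fold change 1.37 ± 0.80 (SE), adjusted p = 0.168). In sum, the 19 genes of this class went from 3.79 ± 0.466 (SD, n = 3) to 630.1 ± 152 CPM. In these bulk samples, fewer cells of a type and less RNA per cell cannot be told apart.

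The partners Krt8 and Krt18 moved in opposite directions. Krt8 stood at 88.2, 102 and 76.2 CPM in Cont on day 3 against 2.05, 1.34 and 0.542 in MEFs, 67.8-fold higher (log2 fold change 6.05 ± 0.47 (SE), adjusted p = 3.54e-14). Krt18 stood at 6, 7.78 and 7.73 against 47.2, 24.1 and 44.5, 5.38-fold lower (log2 fold change -2.42 ± 0.58 (SE), adjusted p = 0.000681). The ranges of the 2 groups did not overlap for either gene. MEFs thus held 187 Krt18 reads and 6 Krt8 reads, and Cont on day 3 held 33 and 403. Krt7 (0, 0.864 and 3.86 against 4.78, 5.35 and 9.76 in MEFs, adjusted p = 0.0513), Krt19 (1.2, 0.864 and 1.1 against 6.15, 2.01 and 2.17, adjusted p = 0.11) and Krt20 (4.8, 7.78 and 4.42 against 5.47, 8.03 and 10.8, adjusted p = 0.365), keratins of glandular and intestinal epithelia, did not pass.

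Among the envelope genes, Sprr2b rose furthest. It stood at 160.3, 220.3 and 304 CPM on day 3 against 1.37, 0 and 0 in MEFs, 556-fold (95% counting interval 154 to 4595) higher (adjusted p = 1.29e-14). Sprr1b (9.6, 8.64 and 13.8, no read in MEFs, at least 5.64-fold higher), Sprr3 (13.2, 22.5 and 21.5 against 0, 0 and 2.71) and Ivl (8.4, 7.78 and 16 against 2.05, 0 and 0.542), all cross-linked into the envelope, rose as well (adjusted p = 3.13e-06, 3.19e-05 and 0.00215). So did both Sprr2a2 entries of the table (3, 0.864 and 6.63 and 5.4, 5.18 and 10.5, no read in MEFs, adjusted p = 0.00447 and 0.00117) and Lce3b, at 1.8, 0.864 and 2.21, whose call was lost without any MEF replicate and without Cont replicate 1 or 3 (adjusted p 0.0744 to 0.1). Sprr2k went from 41.7, 44.2 and 40.1 in MEFs to 6, 4.32 and 3.31 on day 3, 9.24-fold lower (log2 fold change -3.19 ± 0.49 (SE), adjusted p = 1.53e-06). Lce1h went from 26.7, 20.7 and 20.1 to 0, 0 and 0.552, 103-fold (95% counting interval 18.2 to 4117) lower (adjusted p = 7.26e-06). Lce1f, which was not tested, had 23 reads in MEFs and none in any other group, and Lce1g, chosen after its values were seen, had 14 of its 18 reads in MEFs. Sprr1a stood at 10.8, 6.91 and 2.76 against 2.05, 3.35 and 9.76 (adjusted p = 0.646).

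**Figure D2:**
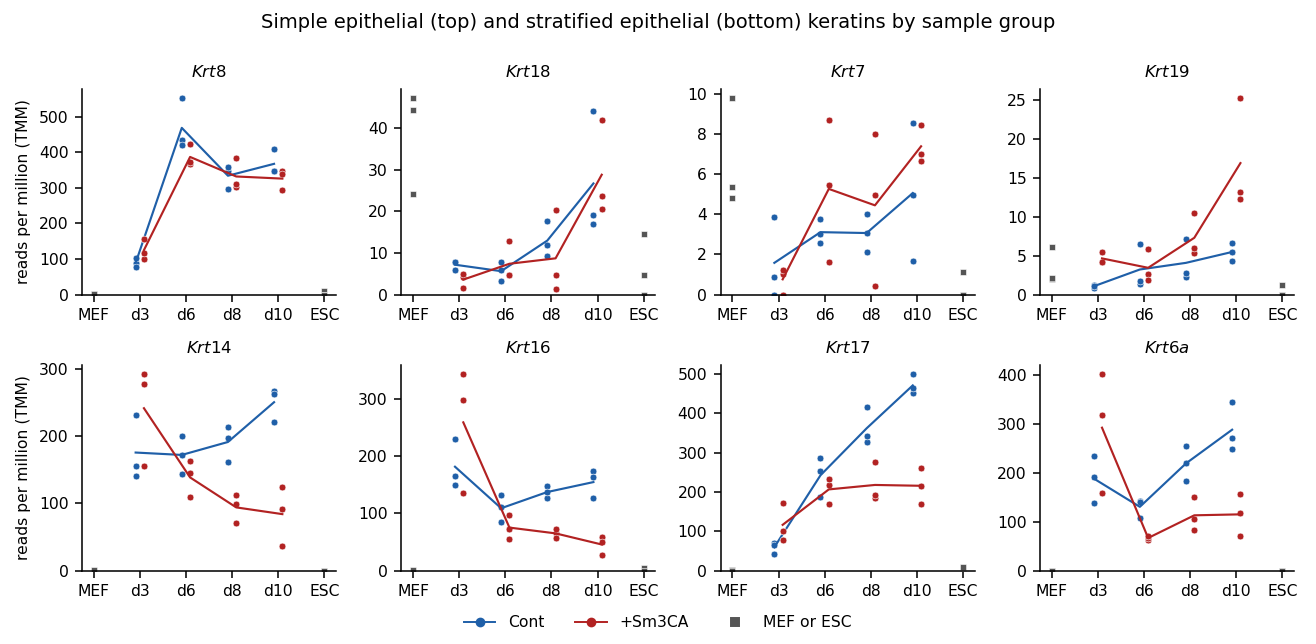
TMM-scaled CPM (linear axis from 0) in MEFs, on days 3 to 10 and in ESCs for 4 simple epithelial keratins (top) and 4 stratified epithelial keratins (bottom); points are libraries and lines join group means (blue, Cont; red, +Sm3CA). Krt8 is between 419 and 551 in Cont on day 6, Krt17 reaches 450.5 to 499 in Cont on day 10, and on days 8 and 10 every Cont library of Krt14, Krt16, Krt17 and Krt6a lies above every +Sm3CA library.

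The next comparison followed Cont from day 3 to day 10. Krt8 and Krt17, keratins of simple epithelia and of follicles, rose most in level, Krt14 and Krt16 did not pass the test over days by edgeR (they did by DESeq2, adjusted p = 0.0448 and 0.00966), and the envelope gene Sprr2b was lowest on day 6. Of 20 members tested, 10 differed among the 4 days, against 26.9% of all 10237 genes. Between day 3 and day 10, 6 rose and 2 fell, against 13.6% and 11.6% of all genes.

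Krt17 stood at 43.2, 69.1 and 66.3 CPM on day 3, 254, 188 and 285 on day 6, 327, 417 and 342 on day 8 and 499, 450.5 and 464 on day 10. The ranges of days 3, 6 and 8 followed each other without overlap, as did those of days 8 and 10, a 7.91-fold rise in all (log2 fold change 3.01 ± 0.24 (SE), adjusted p = 1.68e-12). Krt8 stood at 88.2, 102 and 76.2 on day 3, 434, 419 and 551 on day 6, 346, 358 and 297 on day 8 and 347, 347 and 408 on day 10. Its rise was therefore complete by day 6, and day 10 was 4.13-fold above day 3 (log2 fold change 2.07 ± 0.18 (SE), adjusted p = 2.57e-11). Krt18 returned later, from 3.28, 5.79 and 7.78 on day 6 to 9.15, 17.8 and 12 on day 8 and 19, 17.1 and 44 on day 10 (day 10 against day 3: log2 fold change 1.93 ± 0.53 (SE), adjusted p = 0.00617). Without Cont day 10 replicate 3, its highest library, the change was 1.32 and did not pass (adjusted p = 0.113), nor did its test over days (0.0922). For every 100 reads of Krt8 there were 6.8 to 10.1 reads of Krt18 on day 3, 0.754 to 1.41 on day 6 and 4.92 to 10.8 on day 10. The ratio is compared only across days, since it is not a ratio of proteins.

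Krt19, at 1.2, 0.864 and 1.1 on day 3 and 6.62, 5.43 and 4.34 on day 10, and Krt20, at 4.8, 7.78 and 4.42 and 19.9, 17.8 and 11.2, also rose (2.27 and 1.56 on the log2 scale, adjusted p = 0.0196 and 0.00869). The call for Krt19 was lost without Cont day 10 replicate 1 or without any replicate of day 3 (adjusted p 0.0531 to 0.0604). Over the 4 days the call for Krt20 was marginal (adjusted p = 0.0487) and was lost with a replicate block (0.0558) and without any replicate of day 3 or day 6, day 8 replicate 1 or day 10 replicate 1 or 2 (0.0526 to 0.189). Krt14 stood at 140.5, 232 and 156 on day 3, 172, 144 and 201 on day 6, 162, 215 and 198 on day 8 and 221, 268 and 264 on day 10. Its groups overlapped from day 3 to day 8, and neither the test over days (adjusted p = 0.203) nor that of day 10 against day 3 passed (log2 fold change 0.54 ± 0.25 (SE), adjusted p = 0.113). Krt16 stood at 149.5, 229 and 165 on day 3, 85.2, 110.1 and 131 on day 6, 127, 147 and 137 on day 8 and 127, 173 and 164 on day 10 (over days, adjusted p = 0.0869). Krt6a stood at 139, 234 and 192 on day 3, 143, 108 and 141 on day 6, 182, 254 and 220.2 on day 8 and 247, 345 and 271 on day 10 (over days, adjusted p = 0.00393; day 10 against day 3, adjusted p = 0.0561). Its lowest group was day 6 and its highest day 10, with no overlap between them. Krt13, Krt10, Krt7 and Krt42 did not pass the test over days (adjusted p = 0.76, 0.504, 0.491 and 0.341).

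Sprr2b stood at 160.3, 220.3 and 304 CPM on day 3, 32.8, 58.6 and 69.4 on day 6, 104, 162 and 128 on day 8 and 415, 172 and 165 on day 10 (over days, adjusted p = 1.29e-05). It was lowest on day 6, below every library of the other days. Sprr3 went from 13.2, 22.5 and 21.5 on day 3 to 7.49, 3.86 and 4.79 on day 6 and 3.31, 1.55 and 4.96 on day 10, and Ivl from 8.4, 7.78 and 16 to 2.34, 0.644 and 4.19 and 0.828, 0.775 and 3.1. Both were lower on day 10 than on day 3 (fell by 2.45 and 2.64 on the log2 scale, adjusted p = 0.00198 and 0.0148), and the call for Ivl was lost without day 3 replicate 3 or day 10 replicate 1 or 2 (adjusted p 0.0603 to 0.0974). Sprr1a rose from 10.8, 6.91 and 2.76 on day 3 to 10.8, 15.5 and 26 on day 10 (log2 fold change 1.40 ± 0.48 (SE), adjusted p = 0.0267). Replicates are paired over the days of a series, and in the paired fit, with a replicate block, its adjusted p was 0.051. The adjusted p was 0.0681 by DESeq2, 0.06 with all 30 libraries in the fit and 0.0519 with 1 well per library. Without day 3 replicate 2, day 3 replicate 3 or day 10 replicate 3 it was 0.0587, 0.178 and 0.229. Without the last its test over days did not pass either (0.108). Sprr1b and Sprr2k stayed within 4.96 to 16.7 and 0.828 to 6 over the 12 libraries (over days, adjusted p = 0.95 and 0.879). Lce3b stood at 2.48, 6.98 and 8.06 on day 10 (over days, adjusted p = 0.0619). The 2 entries of Sprr2a2 stood at 52.1 each in Cont day 10 replicate 1 and at 1.86 to 4.34 in replicates 2 and 3. Both wells of replicate 1 held these reads, and the call over days of Sprr2a2_loc2 (adjusted p = 0.00753) was lost without that library (adjusted p = 0.136). The same library was the highest of Sprr2b.

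**Figure D3:**
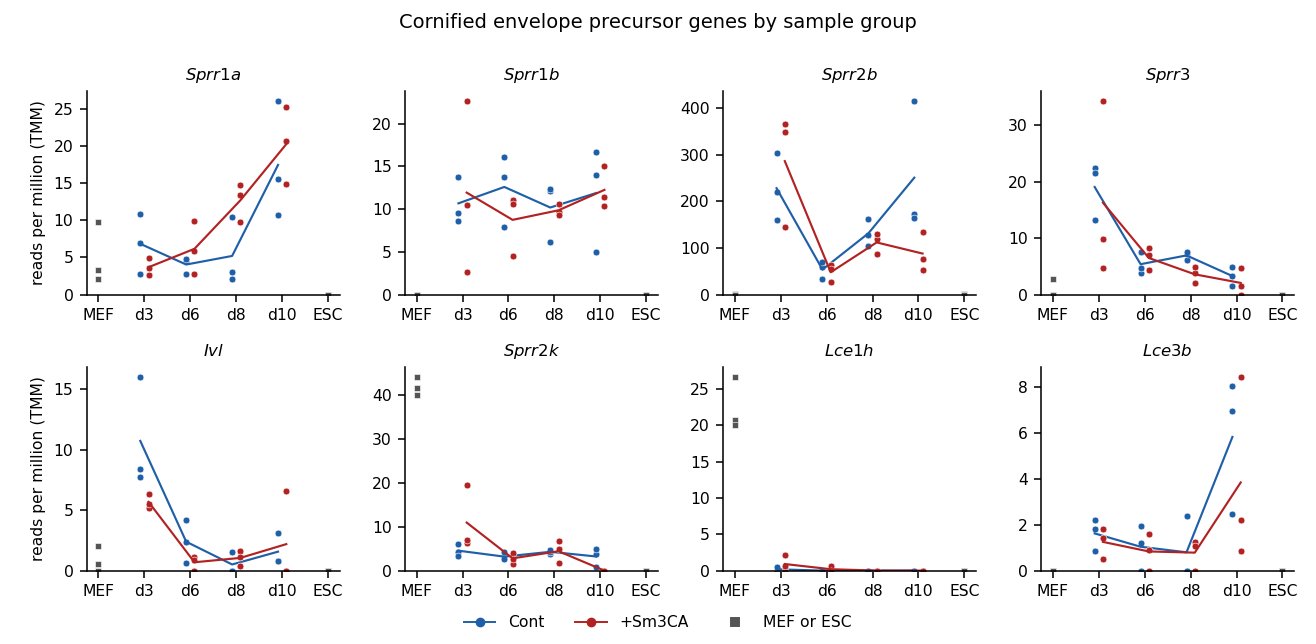
TMM-scaled CPM (linear axis from 0) for 8 envelope genes in MEFs, on days 3 to 10 and in ESCs; points are libraries and lines join group means (blue, Cont; red, +Sm3CA). Sprr2k (40.1 to 44.2) and Lce1h (20.1 to 26.7) are highest in MEFs, Sprr3 and Ivl have their highest mean on day 3, and none of the 8 exceeds 0.63 in ESCs.

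In +Sm3CA, 13 of 20 members differed among the 4 days, against 40.2% of all genes. From day 3 to day 10, 6 rose and 6 fell, against 17.6% and 16.2%. The simple keratins Krt7, Krt8, Krt18 and Krt19 rose with Krt17 and Sprr1a, and the basal and wound keratins Krt14, Krt16 and Krt6a fell with Sprr2b, Sprr2k and Sprr3. Krt14 stood at 156, 278 and 292 CPM on day 3, 109, 163 and 145 on day 6, 99.4, 70.8 and 112 on day 8 and 124, 92.5 and 35.9 on day 10, 2.88-fold lower on day 10 than on day 3 (log2 fold change -1.52 ± 0.27 (SE), adjusted p = 2.56e-05). Krt16 stood at 135, 298 and 342 on day 3, 71.9, 97.6 and 55.6 on day 6, 65.9, 56.1 and 72.9 on day 8 and 58.2, 50.3 and 28 on day 10, 5.68-fold lower by day 10 (log2 fold change -2.50 ± 0.27 (SE), adjusted p = 3.42e-09). Krt6a stood at 158, 401 and 317 on day 3, 62.6, 67.2 and 70.2 on day 6, 106, 83.5 and 149.6 on day 8 and 157, 118 and 70.1 on day 10, 2.54-fold lower (log2 fold change -1.35 ± 0.26 (SE), adjusted p = 9.65e-05). All 3 were below every day 3 library on day 10. On day 3 replicate 1 was the lowest of the 3 replicates for each of them, and for Sprr2b (146, 366 and 348).

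Krt17 stood at 78.8, 99.9 and 171 on day 3 and 261, 216 and 170 on day 10 (log2 fold change 0.90 ± 0.22 (SE), adjusted p = 0.00171), with one library of day 3 above the lowest of day 10. Krt8 rose from 100.2, 156 and 118 on day 3 to 366, 422 and 372 on day 6 and 347, 338 and 293 on day 10 (log2 fold change 1.38 ± 0.18 (SE), adjusted p = 1.2e-07). Krt18 went from 1.56, 4.29 and 4.92 to 20.7, 23.7 and 42.1 (log2 fold change 3.03 ± 0.59 (SE), adjusted p = 0.000123), Krt19 from 4.17, 5.51 and 4.22 to 13.2, 25.2 and 12.3 and Krt7 from 1.04, 1.23 and 0 to 8.45, 6.66 and 7.01 (adjusted p = 0.00529 and 0.00861). Without day 10 replicate 2 the call for Krt19 was lost (adjusted p = 0.0733). Sprr1a, an envelope gene that is also induced by injury in many tissues, rose from 2.61, 4.9 and 3.51 to 20.7, 25.2 and 14.9 (log2 fold change 2.46 ± 0.51 (SE), adjusted p = 0.000288). Sprr2b stood at 27.2, 62.4 and 53.8 on day 6, 119, 87.6 and 129 on day 8 and 134, 53.3 and 76.2 on day 10, and was 3.26-fold lower on day 10 than on day 3 (log2 fold change -1.71 ± 0.34 (SE), adjusted p = 0.000138). Sprr2k went from 6.26, 19.6 and 7.03 to no read in the 3 libraries of day 10, at least 4.29-fold lower (adjusted p = 2.37e-05). Sprr3 went from 4.7, 34.3 and 9.84 to 4.7, 1.48 and 0 (adjusted p = 0.000753), a fall that did not pass without day 3 replicate 2 (adjusted p = 0.055). Ivl differed over days (adjusted p = 0.0301) but stood at 6.58, 0 and 0 on day 10 and did not pass against day 3 (adjusted p = 0.203). Its call over days was lost without any replicate of day 3, day 6 replicate 2 or day 8 replicate 1 (adjusted p 0.056 to 0.0924), and that of Krt7 (adjusted p = 0.0409) without any replicate of days 3 and 10 or day 6 replicate 1 or 3 (0.0521 to 0.162). The calls over days of Krt17 and Sprr3 were lost without day 3 replicates 1 and 2 in turn (0.0714 and 0.1), and that of Krt19 without day 10 replicate 2 (0.075). Krt13, Krt10, Krt20, Krt42, Sprr1b, Lce3b and Sprr2a2_loc2 did not pass the test over days (adjusted p = 0.194, 0.907, 0.0951, 0.125, 0.831, 0.2 and 0.0573). Sprr2a2_loc2 passed with a replicate block (adjusted p = 0.049) and by DESeq2 (0.0404). Lce1h, tested only with MEFs and ESCs in the fit, had no read on days 8 and 10 in either series.

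The direct comparison of +Sm3CA with Cont asked which of these genes Smad3CA moved on each day. On day 10, 4 stratified keratins (Krt14, Krt16, Krt17 and Krt6a) and the envelope genes Sprr2b and Sprr2k were lower with Smad3CA. None of the 5 simple keratins tested passed, which does not show that they were unchanged. On day 3 and on day 6, none of the 20 members passed by edgeR or by DESeq2 (6 and 1 at an unadjusted p below 0.05). The background was 0.0195% higher and 0% lower on day 3, and 0.00977% higher and 0% lower on day 6. On day 8, 3 members were lower and 0 higher, against 0.654% lower and 0.381% higher over all genes. On day 10, 6 were lower and 0 higher, against 2.74% lower and 0.83% higher.

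On day 10, Krt16 stood at 127, 173 and 164 CPM in Cont and 58.2, 50.3 and 28 in +Sm3CA, 3.39-fold lower (log2 fold change -1.78 ± 0.27 (SE), adjusted p = 4.34e-05). Krt14 stood at 221, 268 and 264 and 124, 92.5 and 35.9, 2.98-fold lower (log2 fold change -1.60 ± 0.27 (SE), adjusted p = 0.000166). Krt6a stood at 247, 345 and 271 and 157, 118 and 70.1, 2.5-fold lower (log2 fold change -1.34 ± 0.26 (SE), adjusted p = 0.00109). For these 3 the highest +Sm3CA library was below the lowest Cont library, and among the +Sm3CA libraries replicate 3 was the lowest. Krt17 stood at 499, 450.5 and 464 and 261, 216 and 170, 2.18-fold lower and again without overlap (log2 fold change -1.14 ± 0.21 (SE), adjusted p = 0.000816). The 4 keratin calls held under each of the 12 alternatives run, with adjusted p of at most 0.00265 for Krt16, 0.00564 for Krt14, 0.0229 for Krt17 and 0.032 for Krt6a. In sum, the 19 stratified keratins stood at 1195 ± 69.3 (SD, n = 3) in Cont and 493 ± 142 in +Sm3CA, and the 7 simple keratins at 424 ± 44.4 and 393 ± 26.1.

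Sprr2b stood at 415, 172 and 165 in Cont and 134, 53.3 and 76.2 in +Sm3CA on day 10, 2.85-fold lower (log2 fold change -1.53 ± 0.34 (SE), adjusted p = 0.0047). Cont replicate 1 was far above the others, and without it the change was -0.96 with adjusted p = 0.0996. Without +Sm3CA replicate 2 it was -1.24 with adjusted p = 0.0766. Sprr2k stood at 0.828, 3.88 and 4.96 in Cont and had no read in +Sm3CA, at least 1.26-fold lower, and its call (adjusted p = 0.0288) rests on 14 reads and was lost without Cont replicate 2 or 3 or without any +Sm3CA replicate (adjusted p 0.0854 to 0.134).

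Of the simple keratins, Krt8 stood at 347, 347 and 408 in Cont and 347, 338 and 293 in +Sm3CA (log2 fold change -0.19 ± 0.17 (SE), adjusted p = 0.641), and Krt18 at 19, 17.1 and 44 and 20.7, 23.7 and 42.1 (log2 fold change 0.07 ± 0.47 (SE), adjusted p = 0.966). Krt19 stood at 6.62, 5.43 and 4.34 and 13.2, 25.2 and 12.3. Every +Sm3CA library was above every Cont library, yet the difference did not pass (log2 fold change 1.63 ± 0.52 (SE), adjusted p = 0.078). Krt7 (adjusted p = 0.796), Krt20 (0.707), Krt13 (0.876), Krt10 (0.944), Krt42 (0.996), Sprr1a (0.888), Sprr1b (0.994), Sprr3 (0.733), Ivl (0.941), Lce3b (0.755) and Sprr2a2_loc2 (0.053) did not pass either.

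On day 8, Krt16 stood at 127, 147 and 137 in Cont and 65.9, 56.1 and 72.9 in +Sm3CA (log2 fold change -1.07 ± 0.25 (SE), adjusted p = 0.0241). Krt14 stood at 162, 215 and 198 and 99.4, 70.8 and 112 (log2 fold change -1.02 ± 0.25 (SE), adjusted p = 0.0361), and Krt6a at 182, 254 and 220.2 and 106, 83.5 and 149.6 (log2 fold change -0.95 ± 0.25 (SE), adjusted p = 0.0493). None of the 3 overlapped between the groups, but all 3 calls were lost when any of Cont replicates 2 and 3 and +Sm3CA replicates 1 and 2 was left out (adjusted p 0.0604 to 0.249), and with all 30 libraries in the fit (0.0854 to 0.115). With a replicate block, Krt6a did not pass (-0.94, adjusted p = 0.0545). Krt17 stood at 327, 417 and 342 and 276, 185 and 193 on day 8 (log2 fold change -0.72 ± 0.21 (SE), adjusted p = 0.0792). On day 6, Krt6a stood at 143, 108 and 141 in Cont and 62.6, 67.2 and 70.2 in +Sm3CA, without overlap (log2 fold change -0.97 ± 0.27 (SE), adjusted p = 0.954). On day 3 the order was the other way for Krt17, at 43.2, 69.1 and 66.3 in Cont and 78.8, 99.9 and 171 in +Sm3CA (log2 fold change 0.96 ± 0.24 (SE), adjusted p = 0.436).

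Markers of other cells were summed in the libraries of day 10. The summed level of 5 immune markers (Ptprc, Cd52, Laptm5, Tyrobp and Cd74, all detected) was 24 to 197 in Cont and 34.8 to 42.9 in +Sm3CA. Cont replicate 1, which had the lowest immune sum of the 3, was the lowest of the 3 for Krt14, Krt16 and Krt6a, at 221, 127 and 247. It was the highest of the 3 for Krt17, at 499, for Sprr2b, at 415, and for both Sprr2a2 entries, at 52.1. Any relation between the immune sum and these levels was not tested. The summed level of the 8 fibroblast markers was 549.5 to 1241 in Cont and 439.9 to 596 in +Sm3CA, with none at 0, and 4 of the 7 tested were lower in +Sm3CA (Fn1, Col1a1, Postn and Col1a2, named after their values were seen). The 8 ESC markers summed to 302 to 679.6 in Cont and 713 to 1521 in +Sm3CA without overlap, with 2 of 7 tested higher (Zfp42 and Dppa5a), and the 8 epithelial markers to 307 to 357 and 409.5 to 441, also without overlap, with 0 of 8 passing by edgeR (3 at an unadjusted p below 0.05). Of the immune markers, 1 of 4 tested was lower (Cd52). Over all genes, 2.74% were lower and 0.83% higher on day 10. Of 6 trophoblast markers in the table, 3 were detected in Cont (9.3 to 24.8) and 5 in +Sm3CA (11.4 to 21.5). The 5 mesothelial markers, which include Krt19, summed to 77.8 to 246 and 69.2 to 115, and 5 neuronal markers to 1735 to 2063 and 1539 to 2168. The 8 keratinocyte markers, of which Krt14, Krt10 and Ivl are members, summed to 248 to 298 in Cont, with Krt5, Krt1 and Lor at 0, and to 47.3 to 140 in +Sm3CA, with Trp63, Krt1 and Lor at 0. The part of other cells in these differences was not tested.

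**Figure D4:**
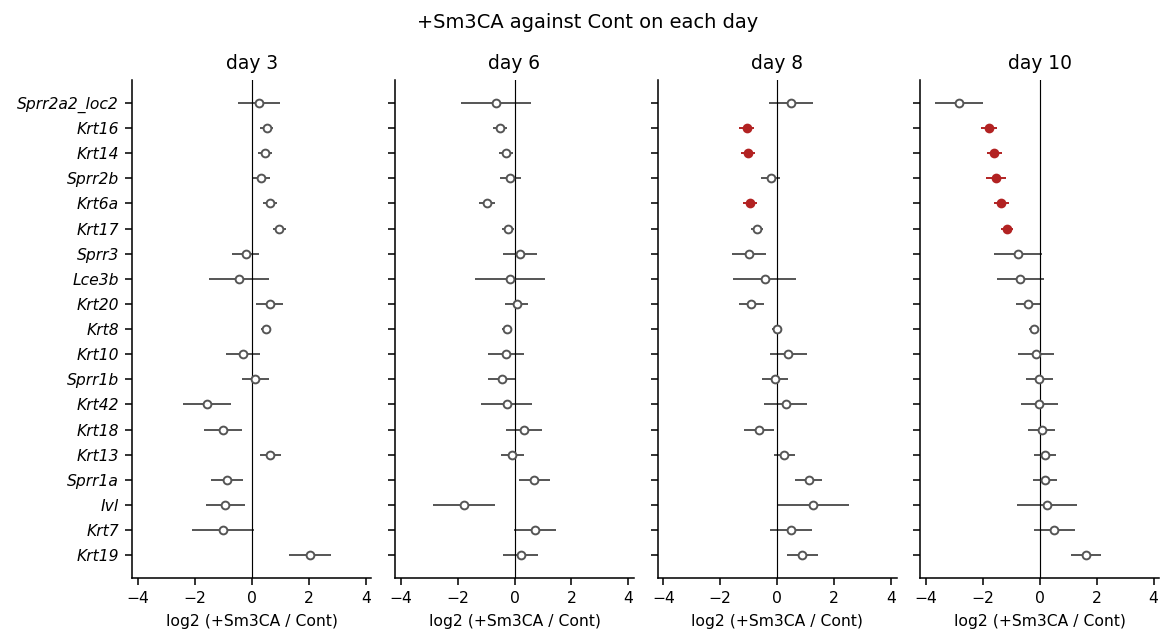
Log2 fold change of +Sm3CA against Cont (horizontal axis, bars ± SE from edgeR) on days 3, 6, 8 and 10 for 19 of the 20 members tested; filled red points passed an adjusted p below 0.05. Krt16, Krt14, Sprr2b, Krt6a and Krt17 lie at or above 0.32 on day 3 and at -1.14 or below on day 10 (Sprr2k is left out because it had no read in +Sm3CA on day 10).

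Whether the difference itself changed between day 3 and day 10 was tested as an interaction. It was more negative on day 10 for 6 members and more positive for 0, against 0.899% and 0.107% of all genes. These were Krt14 (log2 fold change -2.06 ± 0.37 (SE), adjusted p = 0.00146), Krt16 (log2 fold change -2.30 ± 0.36 (SE), adjusted p = 0.000215), Krt17 (log2 fold change -2.11 ± 0.32 (SE), adjusted p = 0.00016), Krt6a (log2 fold change -1.98 ± 0.36 (SE), adjusted p = 0.00177), Sprr2b (log2 fold change -1.86 ± 0.46 (SE), adjusted p = 0.0338) and Sprr2k (adjusted p = 0.0254). Sprr2k stood at 6, 4.32 and 3.31 in Cont and 6.26, 19.6 and 7.03 in +Sm3CA on day 3. The 4 keratins held under each of the 18 alternatives run, with changes between -2.60 and -1.67. Sprr2b was lost under 9 of 18 alternatives (adjusted p up to 0.169), among them leaving out replicate 1 or 2 of Cont and 2 or 3 of +Sm3CA on day 3, and replicate 1 of Cont and 2 or 3 of +Sm3CA on day 10. Sprr2k was lost under 8 of 17 (adjusted p up to 0.119), without replicate 1 or 3 of Cont or 2 of +Sm3CA on day 3, or replicate 2 or 3 of Cont or any of +Sm3CA on day 10. Krt8 did not pass (log2 fold change -0.69 ± 0.25 (SE), adjusted p = 0.208).

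**Figure D5:**
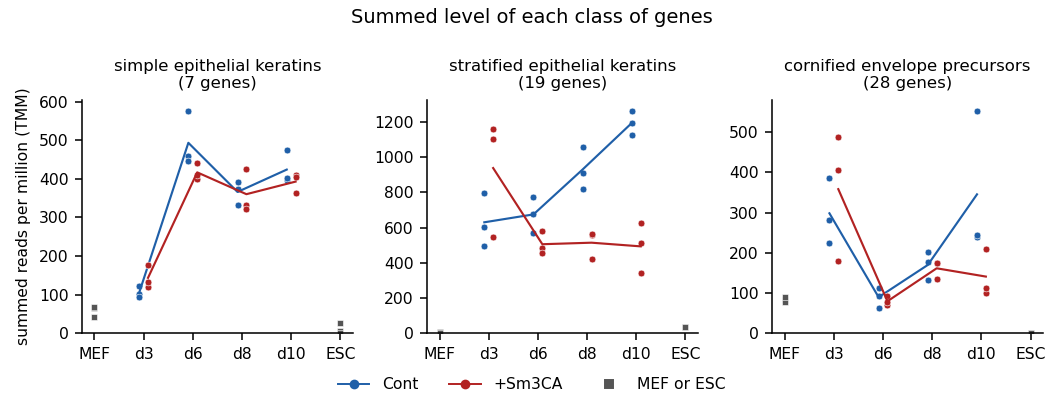
Summed TMM-scaled CPM (linear axis from 0) of 7 simple epithelial keratins, 19 stratified epithelial keratins and 28 envelope genes; points are libraries and lines join group means (blue, Cont; red, +Sm3CA; grey, MEFs and ESCs). The stratified keratins average 1195 in Cont and 493 in +Sm3CA on day 10, the simple keratins 424 and 393.

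ESCs held almost none of these transcripts. All 64 members summed to 47 ± 15.1 CPM in ESCs, 1966 ± 94.8 in Cont on day 10 and 145 ± 19.8 in MEFs. Against Cont on day 10, 18 of 22 members were lower in ESCs and 1 was higher, against 30.3% and 21.5% of all 10979 genes, whose median log2 fold change was -0.15. Members with no read in ESCs, such as Krt6a and Krt14, passed the filter only through other groups. For them only a lower level in ESCs could be called, so the count was partly set by the filter. Krt6a and Krt14 had no read in ESCs (at least 109.8-fold and at least 95.7-fold lower). Krt8, although a keratin of the early embryo, stood at 10.7, 0 and 0 in ESCs (103-fold lower, adjusted p = 1.12e-17), with all 17 reads in replicate 1. Krt17 stood at 5.67, 5.72 and 8.48 (71.1-fold lower, adjusted p = 2.13e-19) and Krt18 at 14.5, 4.58 and 0 (adjusted p = 0.00704), a call lost without Cont replicate 3 or ESC replicate 3 (adjusted p 0.103 and 0.0595). The exception was Krt42, at 25.8, 4.58 and 22 in ESCs against 3.31, 3.1 and 8.68 in Cont on day 10 (log2 fold change 1.78 ± 0.65 (SE), adjusted p = 0.0209). ESC replicate 2 fell among the Cont libraries, and the call was lost without ESC replicate 1 or 3 or Cont replicate 1 or 2 (adjusted p 0.0613 to 0.121). Krt7 stood at 0, 1.14 and 0 in ESCs, and its call was lost without ESC replicate 1 (adjusted p = 0.0547). Krt10 stood at 1.89, 20.6 and 2.54 in ESCs and did not pass (adjusted p = 0.548), Ivl had no read in ESCs and did not pass either (adjusted p = 0.0556), and Lce1h had no read in ESCs or in Cont on day 10. The other 12 members that were lower were Krt13, Krt16, Krt19, Krt20, Sprr1a, Sprr1b, Sprr2b, Sprr2k, Sprr3, Lce3b and both Sprr2a2 entries, of which Krt13 (at least 6.39-fold lower), Krt20 (at least 6.21-fold) and Sprr1a (at least 6.65-fold) had no read in ESCs.

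Against MEFs, 3 members were higher in ESCs (Krt42, Krt17 and Krt8) and 7 were lower, against 29.1% and 30.5% of all genes. A member with no read in either of these groups could be called in a single direction only. Krt42, with no read in MEFs, was at least 9.22-fold higher (adjusted p = 5.58e-07), and Krt17 was 15.8-fold (95% counting interval 3.93 to 138) higher (adjusted p = 5.32e-05). The call for Krt8 came from ESC replicate 1, and without it the change turned to -4.11 (adjusted p = 0.0664). It was also lost without MEF replicate 2 or 3 (adjusted p = 0.0682 and 0.146). Sprr2k and Lce1h, the envelope genes of MEFs, had no read in ESCs (at least 16-fold and at least 8.58-fold lower), like Krt20 and Sprr1a (at least 3.1-fold and at least 1.93-fold lower). Krt18, Krt7 and Krt19 were also lower (adjusted p = 0.000488, 0.00197 and 0.0252). The call for Krt19 was lost without MEF replicate 1 or ESC replicate 2 or 3 (adjusted p 0.0723 to 0.15).

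Most of the tested genes of 2 lists without members, desmosomes and late differentiation, were higher in Cont on day 3 than in MEFs. Of 17 desmosome, plakin and hemidesmosome genes tested, 11 were higher and 1 lower in Cont on day 3 than in MEFs (median log2 fold change 3.15, against 0.0014 for all genes). Over all genes 22.6% were higher and 20.9% lower. From day 3 to day 10 of Cont, 11 rose and 0 fell (median 0.92, against 0.085), beside 13.6% and 11.6% over all genes. Pkp1, a desmosomal plaque protein, stood at 9.6, 19.9 and 14.4 CPM on day 3 and 60.4, 38.8 and 36 on day 10, with no read in MEFs. List genes with no read in MEFs, such as Pkp1, passed the filter only through other groups and could only be called higher. Of 10 transglutaminases and late differentiation genes tested, 9 were higher and 1 lower on day 3 than in MEFs (median 4.70), and 7 rose and 0 fell to day 10 (median 1.92), beside the same shares of all genes. Tgm1, the enzyme that cross-links the envelope, stood at 9, 4.32 and 7.73 on day 3 and 14.9, 45.8 and 25.4 on day 10 (adjusted p = 0.0003), and Krtdap, a secreted protein of differentiating keratinocytes, at 90.6, 121 and 107 and 619.8, 655 and 609 (adjusted p = 2.29e-12). On day 10, 0 of the 17 and 0 of the 10 passed between +Sm3CA and Cont by edgeR, with 3 and 2 at an unadjusted p below 0.05 (Krtdap stood at 637, 702 and 565 in +Sm3CA, adjusted p = 1). Over all genes 2.74% were lower and 0.83% higher on day 10, so lists of this length can hold few calls at those shares. On day 8, 0 of the 17 passed and 1 of the 10 was higher, with 5 and 3 at an unadjusted p below 0.05. The shares of all genes on day 8 were 0.381% higher and 0.654% lower. Of the epithelial and epidermal regulators, 5 of 14 tested were higher and 0 lower on day 3 than in MEFs (median 2.69, beside 22.6% higher and 20.9% lower over all genes), 8 of 12 rose and 1 fell from day 3 to day 10 (median 2.67, beside 13.6% and 11.6%), and 0 of 12 passed between +Sm3CA and Cont on day 10 (1 at an unadjusted p below 0.05). Ovol1, a repressor of mesenchymal genes, stood at 10.2, 12.1 and 7.18 on day 3 against 0.684, 0 and 0 in MEFs (adjusted p = 7.37e-07). Of the other intermediate filament genes, 1 of 9 tested was higher and 3 were lower on day 3 than in MEFs (median 0.098), beside the same shares of all genes. Vim, the filament of fibroblasts, fell from 2304, 2292 and 3097 in MEFs to 427, 515 and 611 on day 3, and on day 10 stood at 161, 392 and 316 in Cont and 129, 130.3 and 92 in +Sm3CA (log2 fold change -1.33 ± 0.24 (SE), adjusted p = 0.000505).

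Some of these genes are near copies of each other, and reads of the first bases may have been assigned to either. Of the runs of 30 bases within the first 100 bases of each transcript (GENCODE vM21), 33.8% of those of Krt16 also occurred in the first 300 bases of a Krt14 transcript, and 7.07% of those of Krt6a in Krt6b. For Sprr2b the share was 46.5%, all with Sprr2a1, and for Lce1h it was 38%, mostly with other Lce1 genes. No run from the first 100 bases of Krt8, Krt18, Krt14, Krt17, Krt42 or Sprr2k was found in the first 300 bases of another gene, but reads from Krt16 could have been counted to Krt14. Levels of Krt16, Krt14, Krt6a, Sprr2b and Lce1h are therefore uncertain as to which copy was transcribed, and the Sprr2a2 entries matched no transcript name and were not searched.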

How the data were processed

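The authors deposited a table of read counts per gene for 84 wells of an STRT RNA-seq plate. The submitters' processing notes name the genome build mm10, Bowtie 0.12.9 and DESeq2 1.6.3. The deposited values are raw counts of reads, not molecules, and are not scaled for length or depth. The 2 or 3 wells of each biological replicate were summed, as the study did, giving 30 libraries of 1008596 to 2296059 reads (median 1602511). No replicate libraries were identical, and the wells of a library differed by a median coefficient of variation of 6.5% to 11.2% for the 6 members with most reads.

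Counts were tested with edgeR 4.0.16 in R 4.3.3 (quasi-likelihood test, TMM, filterByExpr, Benjamini-Hochberg adjustment over all genes tested, threshold 0.05). The fit of the 24 reprogramming libraries served comparisons within and between the series, and a fit of all 30 libraries those with MEFs and ESCs. The SE of a log2 fold change is its size divided by the square root of F. Where all libraries of a group had no read, the fold is a bound with 3 reads per library, and with 1 to 3 reads it is a ratio of pooled reads with an exact 95% interval, which covers counting error only. Every member that passed the filter is named, as is any other with 10 reads or more in a library. Of each further list, at most 3 genes with the largest called change were eligible. Members and lists were chosen with earlier results of these data known.

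The test was checked on simulated counts at the common dispersion of the data (0.0352): for +Sm3CA against Cont on day 10, it called 191 of 200 genes changed 4-fold and 9 unchanged genes among 9700 tested. The changed genes were drawn only from those with more reads, and every gene was given the same dispersion. The check therefore does not cover members with few reads or with a wide spread between replicates. Replicate numbers are paired over the days of each series by the series description, and the correlation of deviations between same-numbered libraries was -0.088 to 0.074 in Cont and -0.072 to 0.143 in +Sm3CA (18 pairs each). Between Cont and +Sm3CA the numbers are not stated to pair. Alternatives were DESeq2 1.42.0 (test and size factors), no filter, 1 well per library, fits of other sets of libraries, a replicate block and leaving out each replicate.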

Additional observations from a re-analysis of the deposited data

Results flagged for a closer look

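In 6 members the effect of Smad3CA on day 10 was not that of day 3, by the interaction term of the edgeR fit. The keratin calls held under each of the 18 alternatives run. Those of Sprr2b and Sprr2k were lost under 9 of 18 and 8 of 17. The log2 ratio of +Sm3CA to Cont changed by -2.06 for Krt14, -2.3 for Krt16, -2.11 for Krt17, -1.98 for Krt6a and -1.86 for Sprr2b. For Sprr2k the fitted value was -6.76, which is no bound on the change because the 3 +Sm3CA libraries of day 10 had no read.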

How the results depend on the processing

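Of 81 calls for single genes, 964 combinations of call and alternative were run. In 881 the direction and the call were kept, in 82 the call was lost, and in 1 the direction turned (Krt8 in ESCs against MEFs, -4.11 without ESC replicate 1, and up to 2.32 without another replicate). With 1 well per library the number of members called was 10 for Cont on day 3 against MEFs, 5 for Cont on day 10 against day 3, 1 for +Sm3CA against Cont on day 8, 10 for ESCs against Cont on day 10 and 4 for ESCs against MEFs, with fewer reads per library. With no filter, 1 member was called on day 3 and 1 on day 6 between +Sm3CA and Cont. With all 30 libraries in the fit, 0 were called on day 8. With only the 6 libraries compared, 11 of 11 tested were called for ESCs against Cont on day 10 and 3 of 3 tested for ESCs against MEFs. The filter was rerun on those 6 libraries, so a member near 0 in 1 group entered only through the group where it was high. These counts therefore cannot check the calls. Leaving out 1 replicate gave 16 to 18 members for Cont on day 3 against MEFs, 8 to 12 over the days of Cont, 6 to 8 for Cont on day 10 against day 3, 10 to 16 over the days of +Sm3CA and 11 to 13 for +Sm3CA on day 10 against day 3. Between +Sm3CA and Cont it gave 0 to 0 on day 3, 0 to 0 on day 6, 0 to 4 on day 8, 4 to 7 on day 10 and 4 to 6 for day 10 minus day 3. For ESCs it gave 17 to 19 against Cont on day 10 and 9 to 11 against MEFs. A group left with 2 libraries shares its spread with the other groups. With the replicate block the counts were 17, 9, 7, 14, 12, 0, 0, 2, 6, 6, 19 and 10 in the same order, and it ended 3 calls, Sprr1a in Cont on day 10 against day 3 (adjusted p = 0.051), Krt20 over the days of Cont (0.0558) and Krt6a on day 8 (0.0545), and added 1, Sprr2a2_loc2 over the days of +Sm3CA (0.049). Members with few reads, such as Sprr2k on day 10, Lce3b and Sprr2a2, are limited by depth.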
